A study of Mus musculus with 8 samples.

Results

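The Engrailed genes En1 and En2, the Iroquois genes Irx1, Irx2, Irx3 and Irx5, and Gbx2 encode homeodomain transcription factors that pattern the brain along its length. These 7 genes were chosen by name as regulators of the hindbrain and of its border with the midbrain, with no threshold on their values. The choice was made with earlier results of these data known. All 7 were found among the 23284 genes of the count table, and 6 of them (all but Gbx2) were among the 15698 genes that passed a filter on low counts. RNA sequencing measured their expression at E18.5 in the mouse choroid plexus, a secretory epithelium with its stroma that makes cerebrospinal fluid. The 4 groups were hindbrain whole choroid plexus (from the fourth ventricle, strain CD1), telencephalic whole choroid plexus (from the lateral ventricles, strain CD1), hindbrain sorted cells and telencephalic sorted cells (both from strain "ICR (CD1)"). The sorted cells were choroid plexus epithelial cells purified by fluorescence for Ttr::RFP, a red reporter of the transthyretin gene Ttr. Each group held 2 libraries that the submitters call biological replicates, and n = 2 wherever a group mean is given. The series' design text states that the hindbrain and telencephalic samples came from the same brains. Values given per brain or per pair below match the libraries by replicate number. Pooling of embryos is not stated. Whole tissue and sorted cells differ in preparation, in reporter and in how the strain is written, which cannot be told apart.

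The border between midbrain and hindbrain forms early in development, where anterior cells that express Otx2 meet posterior cells that express Gbx2. The border then becomes an organizer that secretes Fgf8 and Wnt1, and En1 and En2 are expressed across it and maintain the fate of the cells on either side. Iroquois genes lie in paired clusters in the mouse genome, with Irx1, Irx2 and Irx4 in one and Irx3, Irx5 and Irx6 in the other, and they act in neural patterning. The choroid plexus of the fourth ventricle arises from the roof of the hindbrain beside the rhombic lip, and that of the lateral ventricles arises from the telencephalon.

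The sequence before the start of Irx2 is shown because Irx2 had the sharpest regional contrast among the genes with a promoter sequence at hand. The RefSeq promoter table (build GRCm38.p6) matched 4 of the 7 genes, En1, Gbx2, Irx2 and Irx3. The 250 bases before the Irx2 start lie at chr13:72628570-72628819 on the plus strand, and are given 5′ to 3′ in lower case with no capitals because none of the motifs searched was found in them.
Irx2: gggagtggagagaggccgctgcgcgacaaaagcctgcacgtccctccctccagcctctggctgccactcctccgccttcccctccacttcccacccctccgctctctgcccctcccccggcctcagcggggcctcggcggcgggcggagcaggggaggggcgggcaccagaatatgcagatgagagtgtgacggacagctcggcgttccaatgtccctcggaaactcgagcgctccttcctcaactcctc
Over the 300-base promoter window (250 before to 50 after the start), Irx2 had 69.0% G and C and an observed over expected CpG ratio of 0.723, against medians of 52.7% and 0.384 over all 32851 promoters. Motifs were searched on both strands. TAATTA, a homeodomain core, is in 5.29% of all promoters, TGACAG (a Meis core) in 19.2%, TGATTNA (a Pbx and Hox core) in 10.3%, GGATTA (an Otx core) in 7.06%, TGGGTGG (a Gli core) in 9.3% and CTTTGAT (a Tcf core) in 3.73%. Among the 4 promoters matched, the only match was TGACAG in En1, on the minus strand. A match is only a run of letters, and its absence says nothing about a factor.

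Levels are in CPM, with library sizes scaled by edgeR's TMM factors. Library totals ranged from 8849053 to 31613434 counts, so all 7 genes are low: 1 count is worth well under 1 CPM. Every interval below covers counting error only, and a ratio to a floor leaves out the counting error of the other group. Transcripts of other cell types persisted in the sorted cells and were unequal between regions. Of 12 macrophage markers 12 were higher in hindbrain than in telencephalic sorted cells, with summed levels of 184.6 to 232.5 CPM in hindbrain sorted cells against 39.09 to 63.92 CPM in telencephalic sorted cells. Mesenchymal markers were higher for 10 of 12 (1085 to 1409 CPM summed in hindbrain sorted cells, 668 to 692.7 CPM in telencephalic sorted cells), mural markers for 8 of 10 (265.2 to 295.5 CPM against 69.75 to 76.7 CPM) and endothelial markers for 5 of 12, with 1 lower (166.1 to 167.1 CPM against 120.1 to 127.7 CPM). No macrophage, mesenchymal, mural or endothelial marker was at 0 in both libraries of any group. In whole tissue 7 of 12 mesenchymal, 1 of 12 macrophage, 1 of 12 endothelial and 0 of 10 mural markers were higher in hindbrain tissue. Markers of the choroid epithelium were present in all groups, at 146100 to 289100 CPM summed over 10 genes. Most of that sum was Ttr, the gene of the reporter, at 139300 to 281700 CPM. Of the 10, 2 were higher and 3 lower in hindbrain than in telencephalic sorted cells, and 2 were higher and 2 lower in whole tissue. The part of these cells in the results below was not tested, and in bulk samples fewer cells of a type and less RNA per cell cannot be told apart.

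En2, the Engrailed gene that is widely used as a marker of the midbrain-hindbrain territory, separated the regions in every library. It had 88 and 82 counts in hindbrain whole tissue (3.55 and 3.87 CPM), against 5 and 2 counts in telencephalic whole tissue (0.306 and 0.210 CPM). In hindbrain sorted cells it had 150 and 172 counts (5.45 and 6.31 CPM), against 6 and 4 counts in telencephalic sorted cells (0.227 and 0.248 CPM). The groups did not overlap in either preparation, and the lowest hindbrain library stood more than 10 times above the highest telencephalic library. Within each brain the ratio of hindbrain to telencephalic CPM was 11.6 and 18.46 for the whole tissue pairs and 24.1 and 25.4 for the sorted pairs. The fitted log2 difference was 3.76 ± 0.45 in whole tissue (edgeR quasi-likelihood test, Benjamini-Hochberg adjusted p = 0.000252) and 4.61 ± 0.41 in sorted cells (adjusted p = 1.40e-05; ± is the SE of the fit). The difference between those effects was 0.85 ± 0.69 in log2 units and was not called (adjusted p = 0.802).

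En1, which acts before En2 in the embryo, had no counts in any telencephalic library. Hindbrain whole tissue had 11 and 15 En1 counts, against 0 and 0 in telencephalic whole tissue. Hindbrain sorted cells had 4 and 12, against 0 and 0 in telencephalic sorted cells. En1 was thus at least 4.88-fold higher in hindbrain whole tissue and at least 4.15-fold higher in hindbrain sorted cells, with a telencephalic floor of 3 counts summed over the group. Neither comparison reached an adjusted p of 0.05 (adjusted p = 0.0869 in whole tissue and 0.0603 in sorted cells; edgeR). En1 was found in 4 of 4 hindbrain libraries at levels of 0.145 to 0.708 CPM, below the 3.55 to 6.31 CPM of En2 in the same libraries.

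**Figure D1:**
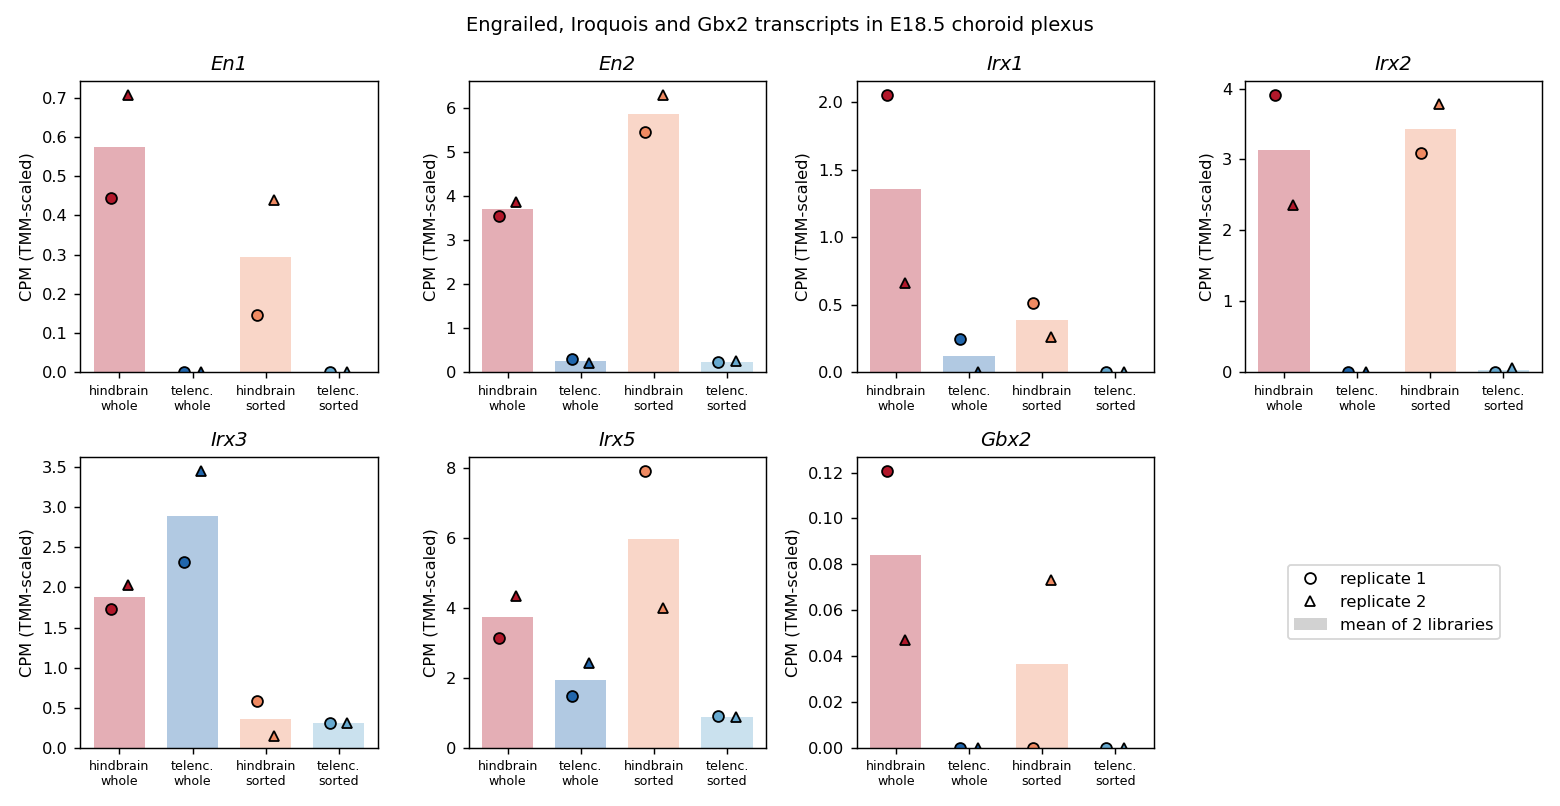
CPM of each of the 7 genes in each of the 8 libraries, with the groups in the order hindbrain whole, telencephalic whole, hindbrain sorted, telencephalic sorted, points for libraries and a bar for the mean of the group. En2 and Irx2 stand above all telencephalic libraries in both preparations, Irx3 is high in whole tissue of both regions, and Gbx2 never exceeds 0.121 CPM.

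Irx2 was the Iroquois gene with the most complete contrast between the regions. It had 97 and 50 counts in hindbrain whole tissue (3.91 and 2.36 CPM), against 0 and 0 counts in telencephalic whole tissue. In sorted cells it had 85 and 103 counts in the hindbrain libraries (3.09 and 3.78 CPM), against 0 and 1 count in the telencephalic libraries. A single count was thus recorded over the 4 telencephalic libraries. Irx2 was 27.6-fold higher in hindbrain whole tissue with a telencephalic floor of 3 counts (adjusted p = 0.000644, edgeR). The lower limit of its 95% counting interval there was 22.2. In sorted cells the ratio of pooled counts was 146 (95% counting interval 25.9 to 5805; adjusted p = 0.000141, edgeR). The interval is wide because the denominator is 1 count.

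Irx1, the neighbour of Irx2 in its cluster, was at lower levels and its replicates were further apart. Its counts were 51 and 14 in hindbrain whole tissue (2.06 and 0.661 CPM), against 4 and 0 in telencephalic whole tissue (0.245 and 0 CPM). In hindbrain sorted cells its counts were 14 and 7 (0.509 and 0.257 CPM), against 0 and 0 in telencephalic sorted cells. The hindbrain libraries were the higher ones in both preparations. The whole-tissue difference of 3.16 ± 1.02 in log2 units was not called (adjusted p = 0.115, edgeR). With the brain as a block it was called, at 3.38 (adjusted p = 0.0464), and it was also called with no low-count filter (0.0448) and with the 4 whole-tissue libraries alone (0.0415). Over the fits that left out a library the difference ranged from 2.15, without hindbrain whole replicate 1, to 7.91, without telencephalic whole replicate 1. Telencephalic whole replicate 1 held all 4 telencephalic counts, so that the upper value depends on the prior count. In sorted cells Irx1 was at least 5.44-fold higher in hindbrain cells and was called (adjusted p = 0.0449), close to the threshold. That call was lost in 6 of 8 fits that left out a library (adjusted p of 0.0527 to 0.239), that is in all but those without hindbrain whole replicate 2 or hindbrain sorted replicate 2. With the 4 sorted libraries alone Irx1 had no tested value.

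Irx5, which lies in the other cluster, was present in both regions and was higher in hindbrain libraries. It had 78 and 92 counts in hindbrain whole tissue (3.14 and 4.34 CPM), against 24 and 23 counts in telencephalic whole tissue (1.47 and 2.41 CPM). In hindbrain sorted cells it had 218 and 109 counts (7.93 and 4.00 CPM), against 24 and 14 counts in telencephalic sorted cells (0.907 and 0.868 CPM). The groups did not overlap in either preparation. In whole tissue the log2 difference was 0.98 ± 0.42 and was not called (adjusted p = 0.254, edgeR), while in sorted cells it was 2.74 ± 0.43 and was called (adjusted p = 0.000944). The difference between these effects, the interaction of region and preparation, was 1.75 ± 0.60 and was not called (unadjusted p = 0.0124, adjusted p = 0.302). It was called only without hindbrain sorted replicate 2, at 2.15 (adjusted p = 0.0420). Within each brain the hindbrain to telencephalic ratio was 2.14 and 1.801 in the whole tissue pairs and 8.74 and 4.61 in the sorted pairs.

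Irx3, the cluster neighbour of Irx5, did not follow the regional pattern. It had 43 and 43 counts in hindbrain whole tissue (1.73 and 2.03 CPM), against 38 and 33 counts in telencephalic whole tissue (2.32 and 3.46 CPM). In hindbrain sorted cells it had 16 and 4 counts (0.582 and 0.147 CPM), against 8 and 5 counts in telencephalic sorted cells (0.302 and 0.310 CPM). The telencephalic values were the higher ones in whole tissue without overlap, and the sorted groups overlapped. The log2 difference was -0.60 ± 0.54 in whole tissue (adjusted p = 0.679) and 0.25 ± 0.70 in sorted cells (adjusted p = 0.867, edgeR), neither called. The direction in sorted cells turned to -1.03 without hindbrain sorted replicate 1. Irx3 was lower in hindbrain than in telencephalic tissue in 3 of 4 brains. The annotated antisense gene Irx3os overlaps Irx3 and is not among the genes counted, and since the library kits mark no strand, reads of Irx3 and its antisense partner cannot be told apart. Annotated genes that were not counted also overlap En2 (Gm43610) and Gbx2 (D130058E05Rik).

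Gbx2, the posterior partner of Otx2 at the border, was at the limit of detection. It had 3 and 1 counts in hindbrain whole tissue, against 0 and 0 in telencephalic whole tissue. In sorted cells it had 0 and 2 counts in the hindbrain libraries, against 0 and 0 in the telencephalic libraries. All 6 of its counts fell in hindbrain libraries. A count of 0 allows up to 0.116 CPM in telencephalic whole tissue and 0.0705 CPM in telencephalic sorted cells, and the pooled hindbrain levels were 0.0870 CPM for whole tissue and 0.0365 CPM for sorted cells, so a difference was not detectable at this depth and Gbx2 was not tested.

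Across the members, 2 of the 6 tested genes were called higher in hindbrain whole tissue (En2 and Irx2) and 0 lower, where 3.34% of all genes tested were called higher and 2.45% lower. In sorted cells 4 of 6 were called higher (En2, Irx1, Irx2 and Irx5) and 0 lower, where 9.06% of all genes were called higher and 6.12% lower. The groups did not overlap, with hindbrain the higher, for 6 of the 7 genes in whole tissue and 5 of the 7 in sorted cells, against 26.8% and 26.1% of all genes tested. Telencephalic values were the higher ones without overlap for 1 of the 7 in whole tissue (Irx3), against 24.8% of all genes. En1, En2, Irx1 and Irx2 passed the low-count filter only through their hindbrain libraries, so they had to differ in order to be tested. The 7 genes were also chosen with earlier results of these data known, and Gbx2, counted among the 7, was not tested. The counts of called genes and of groups without overlap are therefore given as a description only. None of the 6 was called in the interaction by edgeR, 1 (Irx5) had an unadjusted p under 0.05, and DESeq2 called 0, where edgeR called 1.34% of all genes. En1, En2, Irx1, Irx2 and Irx5 were higher in hindbrain than in telencephalic tissue in 4 of 4 brains or pools of brains.

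**Figure D2:**
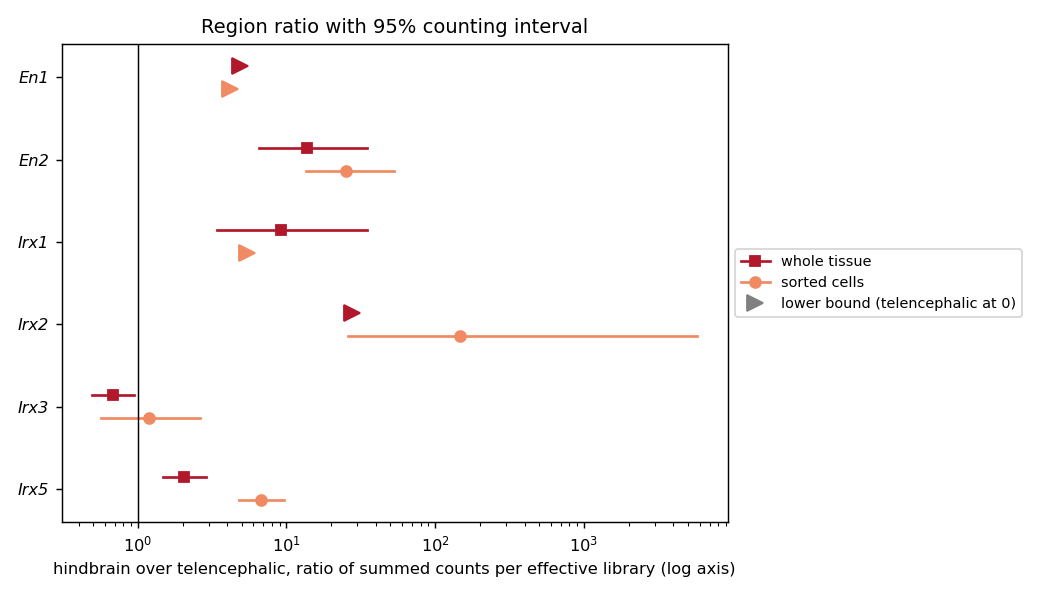
Ratio of pooled hindbrain to pooled telencephalic counts per effective library size, on a log axis, for whole tissue and sorted cells. Lines are 95% counting intervals. Triangles are lower bounds from a floor of 3 counts where the telencephalic group had no counts, without hindbrain counting error (Gbx2 is not drawn). The ratios of En2 are 13.7 in whole tissue and 25.04 in sorted cells, those of Irx5 are 2.04 and 6.69, and the intervals of Irx3 are 0.492 to 0.947 and 0.566 to 2.62.

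Comparing levels between genes needs a correction for length, so CPM was divided by the kilobases of each gene's merged exons in GENCODE M21, which is not the authors' annotation. On this scale hindbrain sorted cells held Irx5 at 1.91 ± 0.89 CPM per kb, En2 at 1.66 ± 0.17 and Irx2 at 1.05 ± 0.15 (SD, n = 2). Irx1, Irx3 and En1 followed at 0.146 ± 0.068, 0.132 ± 0.111 and 0.112 ± 0.079 CPM per kb. The order of Irx5 and En2, and that among Irx1, Irx3 and En1, were not separated by the spread of the replicates. In hindbrain whole tissue the order was Irx5 (1.20 ± 0.27), En2 (1.05 ± 0.06), Irx2 (0.955 ± 0.334), Irx3 (0.681 ± 0.076), Irx1 (0.518 ± 0.376), En1 (0.219 ± 0.071) and Gbx2 (0.0386 ± 0.0239), and no gene before Gbx2 was separated from the next by the spread of the replicates. In telencephalic whole tissue Irx3 stood at 1.05 ± 0.29 CPM per kb and Irx5 at 0.620 ± 0.213, within their spread of each other, and in telencephalic sorted cells Irx5 led at 0.284 ± 0.009, followed by Irx3 at 0.111 ± 0.002.

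The comparison of sorted cells with whole tissue asks which of these transcripts follow the epithelium. Irx3 was the only one of the 6 tested genes that was called, and it fell in sorted cells of both regions. It averaged 0.364 ± 0.308 CPM in hindbrain sorted cells and 1.88 ± 0.21 CPM in hindbrain whole tissue, a log2 change of -2.35 ± 0.60 (adjusted p = 0.0154, edgeR). It averaged 0.306 ± 0.005 CPM in telencephalic sorted cells and 2.89 ± 0.80 CPM in telencephalic whole tissue, a log2 change of -3.20 ± 0.65 (adjusted p = 0.00402). Among all genes tested, 11.9% were called lower in sorted hindbrain cells and 12.5% in sorted telencephalic cells. The hindbrain call was lost without hindbrain whole replicate 1 (adjusted p = 0.0555) or replicate 2 (0.0896). Without hindbrain sorted replicate 1 the change was -3.63 and without hindbrain sorted replicate 2 it was -1.68, both called.

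No other member was called in sorted against whole tissue. In hindbrain cells En2 changed by 0.67 ± 0.30 (adjusted p = 0.137), Irx5 by 0.67 ± 0.37 (0.221) and Irx2 by 0.13 ± 0.44 (0.863) in log2 units (edgeR). En1 had a log2 change of -0.95 ± 0.84 (adjusted p = 0.458) and Irx1 of -1.82 ± 0.81 (0.131). In telencephalic cells Irx5 changed by -1.08 ± 0.47 (adjusted p = 0.119) and En2 by -0.18 ± 0.60 (0.868). When libraries were scaled by their totals instead of by TMM, Irx5 was called lower in telencephalic sorted cells, at -1.40 (adjusted p = 0.0445). The median log2 change of the marker lists gives a scale for this comparison. In hindbrain cells it was 0.39 for choroid epithelium, -0.09 for macrophages, -0.35 for mesenchyme, -0.73 for mural cells, -1.48 for neural progenitors and glia, -2.70 for erythroid genes, -3.10 for rhombic lip genes, -3.50 for endothelium and -4.77 for neurons. In telencephalic cells the medians were 0.47, -1.96, -1.03, -2.42, -0.54, -1.91, -0.08, -4.31 and -2.16 in the same order of lists.

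**Figure D3:**
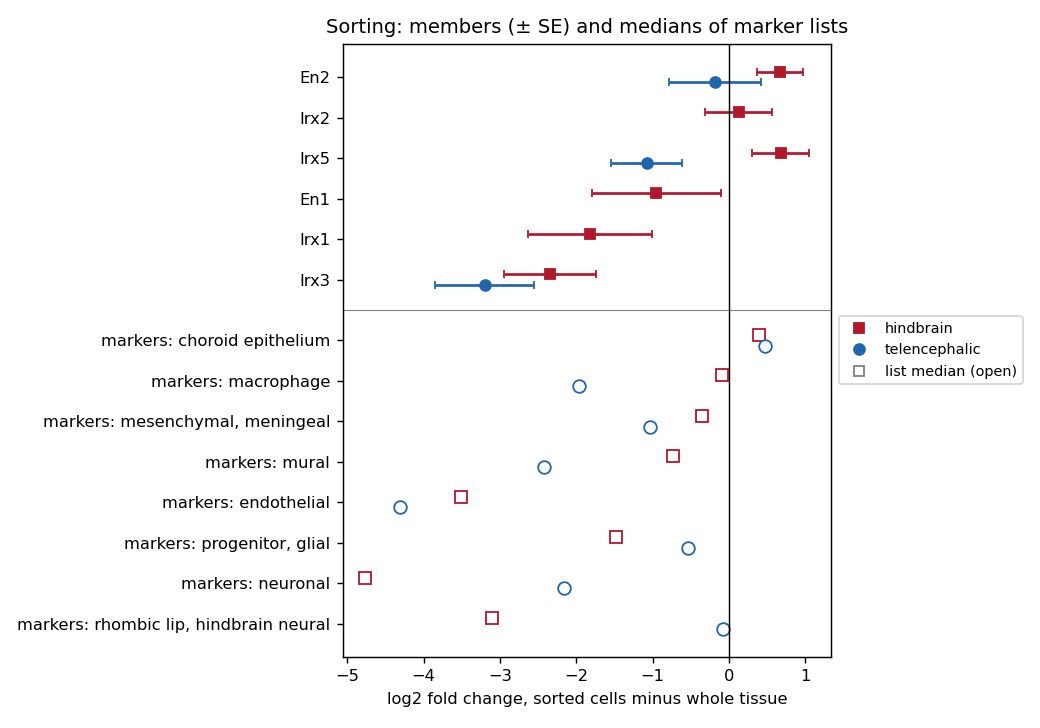
Fitted log2 fold change of sorted cells over whole tissue, squares for hindbrain and circles for telencephalic tissue, with the SE of the fit for the members (a value is left out where a group had 0 or 1 counts) and open symbols for the medians of marker lists. Among the members Irx3 lies lowest in both regions, at -2.35 in hindbrain and -3.20 in telencephalic tissue, while En2 and Irx5 in hindbrain tissue both lie at 0.67.

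The 2 hindbrain whole-tissue libraries differed in their content of rhombic lip transcripts. Atoh1, the proneural factor of the rhombic lip, had 68 counts in replicate 1 and 11 in replicate 2. Neurod1, a neuronal differentiation factor, had 312 and 42, and the homeobox genes Barhl1 and Barhl2 had 113 and 27, and 100 and 22, in replicates 1 and 2. The 8 rhombic lip genes together reached 35.4 CPM in replicate 1 and 8.21 CPM in replicate 2, against 5.26 to 5.34 CPM in telencephalic whole tissue. In sorted cells they summed to 1.600 to 3.05 CPM in hindbrain and 5.08 to 6.01 CPM in telencephalic libraries, and Atoh1 was at 0 in every telencephalic library. Irx1 was also higher in replicate 1, at 51 counts against 14 in replicate 2, and Irx2 had 97 and 50 counts. Meis1, which is not in this list, had 901 and 474 counts. These are values of 1 pair of libraries, and in hindbrain sorted cells Irx1 had 14 and 7 counts. In the 2 whole-tissue libraries En2 was at 88 and 82 counts and Irx5 at 78 and 92. The part of this tissue in the Irx1 and Irx2 values of whole tissue was not tested. Of the 6 rhombic lip genes tested, 2 were called higher in hindbrain whole tissue (Barhl2 and Neurod1, at 3.47 ± 0.90 and 3.54 ± 0.89) and 5 were called lower in sorted than in whole hindbrain tissue. Neuronal markers summed to 114.4 to 121.4 CPM in hindbrain whole tissue against 67.17 to 75.07 CPM in telencephalic whole tissue (2 of 11 higher and 1 lower). In sorted cells they summed to 35.78 to 37.96 CPM in hindbrain against 28.21 to 30.13 CPM in telencephalic libraries (1 higher and 3 lower). The synaptic vesicle gene Syt1 made up most of the sum in hindbrain sorted cells, at 29.1 ± 2.5 CPM there and 11.5 ± 0.7 CPM in telencephalic sorted cells, and was the gene called higher.

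**Figure D4:**
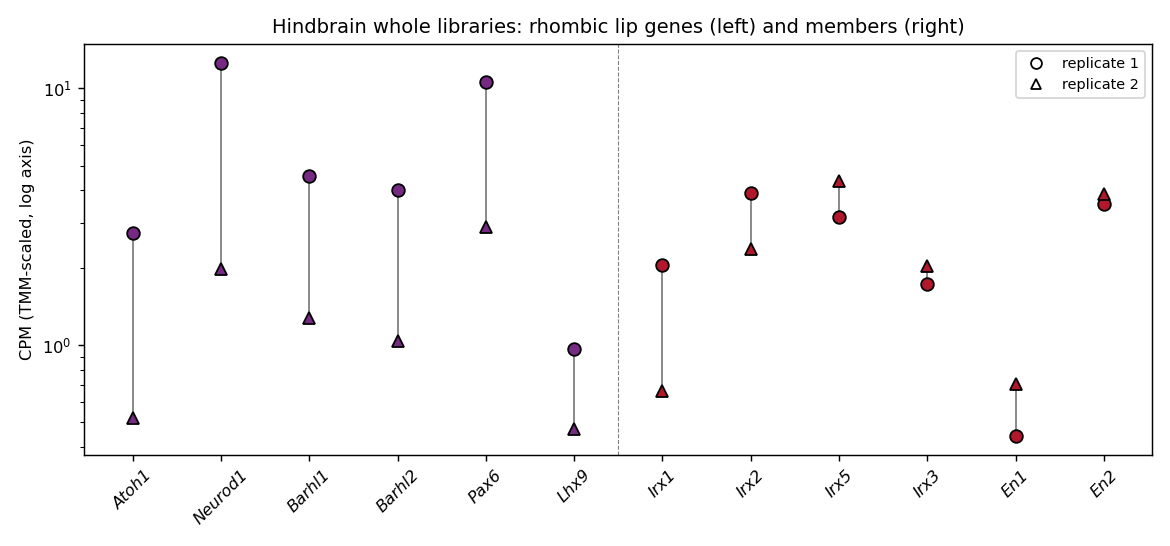
CPM of the members and of the rhombic lip genes in hindbrain whole replicate 1 and replicate 2, on a log axis, circles for replicate 1 and triangles for replicate 2, joined by a line. Neurod1, at 12.6 and 1.98 CPM, and Atoh1, at 2.74 and 0.519 CPM, are far apart between the replicates, as is Irx1 at 2.06 and 0.661 CPM, while En2 lies at 3.55 and 3.87 CPM.

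Other genes of the midbrain-hindbrain border were mostly at or near the limit of detection. Of 12 such genes 6 could be tested, and 2 were higher in hindbrain whole tissue, while in sorted cells 2 were higher and 1 was lower. Lmx1b, a LIM homeodomain factor that maintains the organizer, had 144 and 242 counts in hindbrain whole tissue against 2 and 0 in telencephalic whole tissue, a ratio of 109 (95% counting interval 29.9 to 900.5). In sorted cells it had 185 and 216 counts in hindbrain against 0 and 1 in telencephalic libraries, a ratio of 312 (55.6 to 12350). Cnpy1, a modulator of FGF signalling, had 21 and 16 counts in hindbrain whole tissue against 1 and 0 in telencephalic whole tissue, and 33 and 46 in hindbrain sorted cells against 0 and 1 in telencephalic sorted cells. Its ratios were 20.8 (3.51 to 844.8; adjusted p = 0.0392) and 61.4 (10.7 to 2457; adjusted p = 0.00200). Wnt1 and Fgf8, the ligands of the organizer, were sparse. Wnt1 had 26 and 13 counts in hindbrain whole tissue and 0 in each of the other 6 libraries. That is 7.32-fold higher than telencephalic whole tissue at a floor of 3 counts (adjusted p = 0.0554, edgeR). Fgf8 had 0 and 16 counts in hindbrain sorted cells, 0 and 3 in telencephalic sorted cells and 1 over the 4 whole-tissue libraries, so that sorted replicate 2 of each region held all of its sorted counts, and it was not tested. Fgf18, of the same family, was more abundant, at 13.5 and 16.7 CPM in hindbrain whole tissue against 9.60 and 9.33 CPM in telencephalic whole tissue, and 6.80 and 4.04 CPM in hindbrain sorted cells against 4.99 and 3.41 CPM in telencephalic sorted cells. Neither region comparison of Fgf18 was called (adjusted p = 0.215 and 0.467), and it fell in sorted against whole tissue in hindbrain (-1.48 ± 0.27, adjusted p = 0.00227) and in telencephalic tissue (-1.15 ± 0.29, adjusted p = 0.0126). Fgf17, a relative of Fgf8, went the other way in sorted cells, with 0 and 3 counts in hindbrain against 36 and 8 in telencephalic libraries, a ratio of 0.0530 (0.0105 to 0.165; adjusted p = 0.0208). The paired box genes Pax2, Pax5 and Pax8 had at most 19 counts in any group and were not tested, and nor were the other Iroquois genes, Irx4 with 3 counts and Irx6 with 8 counts over all 8 libraries.

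Anterior patterning factors, which act in front of the border in the early embryo, were split. Otx2, the anterior partner of Gbx2 and a regulator of choroid plexus formation, averaged 518.6 ± 0.2 CPM in hindbrain whole tissue and 498.9 ± 33.0 CPM in telencephalic whole tissue, a log2 difference of 0.06 ± 0.11 that was not called (adjusted p = 0.883). It averaged 584 ± 62 CPM in hindbrain sorted cells and 594 ± 14 CPM in telencephalic sorted cells (-0.02 ± 0.11, adjusted p = 0.923). Otx1, by contrast, was lower in hindbrain tissue whether whole (-3.28 ± 0.26) or as sorted cells (-3.49 ± 0.25). Six3 and Emx2, which act in the forebrain, were the other called genes of the 6 tested, and 3 were lower and 0 higher in each preparation.

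Among the factors that bind Engrailed proteins, 8 of 8 could be tested. These were Groucho-family corepressors of the Tle genes and homeodomain cofactors of the Pbx family. Pbx3 had 42.0 and 48.8 CPM in hindbrain whole tissue against 19.2 and 18.0 CPM in telencephalic whole tissue, and 34.3 and 44.1 CPM in hindbrain sorted cells against 12.4 and 14.6 CPM in telencephalic sorted cells. Its log2 difference was 1.28 ± 0.17 in whole tissue (adjusted p = 0.000534) and 1.55 ± 0.17 in sorted cells (adjusted p = 5.47e-05). Tle1 was lower in hindbrain tissue, at -0.57 ± 0.12 in whole tissue and -0.61 ± 0.11 in sorted cells (adjusted p = 0.0114 and 0.00317). Tle2 was higher in hindbrain sorted cells, at 1.54 ± 0.40 (adjusted p = 0.0207). In all, 1 was higher and 1 lower in whole tissue, and 2 were higher and 1 lower in sorted cells.

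The genes that neighbour the 7 on the chromosomes, taken by order from the RefSeq gene table, were also looked up. Within 3 protein-coding genes on each side there were 30 neighbours, of which 23 were tested. In hindbrain whole tissue 4 were higher and 1 was lower, where 3.34% of all genes tested were higher and 2.45% lower. In hindbrain sorted cells 3 were higher and 1 was lower, where 9.06% of all genes were higher and 6.12% lower. The median log2 difference of the tested neighbours was -0.02 in whole tissue and -0.08 in sorted cells. On the side of En2, the next genes in order are Cnpy1, Rbm33 and Shh, the hedgehog ligand. Shh had 299 and 358 counts in hindbrain whole tissue against 8 and 0 in telencephalic whole tissue, and 239 and 224 in hindbrain sorted cells against 3 and 3 in telencephalic sorted cells. Its ratio of pooled counts was 46.2 (23.3 to 107.6) in whole tissue and 60.01 (27.4 to 164.4) in sorted cells. Rbm33, between Cnpy1 and Shh, had ratios of 1.01 and 1.06. Insig1, on the other side of En2, was called in whole tissue only, at 0.65 ± 0.16 (adjusted p = 0.0295).

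Beside Irx1 and Irx2 lies Adamts16, a secreted metalloprotease. It had 62 and 51 counts in hindbrain whole tissue against 2 and 3 in telencephalic whole tissue, a ratio of 12.7 (95% counting interval 5.295 to 39.95; adjusted p = 0.00692). In sorted cells it had 65 and 46 counts in hindbrain against 2 and 0 in telencephalic libraries, a ratio of 43.2 (11.7 to 360.8; adjusted p = 0.000563). Around Irx3 and Irx5, the tested neighbours Fto and Rpgrip1l on one side and Mmp2 on the other were not called in either preparation. Beside Gbx2, Iqca was lower in hindbrain whole tissue (-0.74 ± 0.15, adjusted p = 0.00923) and Ackr3, a chemokine receptor listed as Cxcr7, was lower in hindbrain sorted cells (-0.65 ± 0.16, adjusted p = 0.0163). No neighbour of En1 within 3 genes was called.

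**Figure D5:**
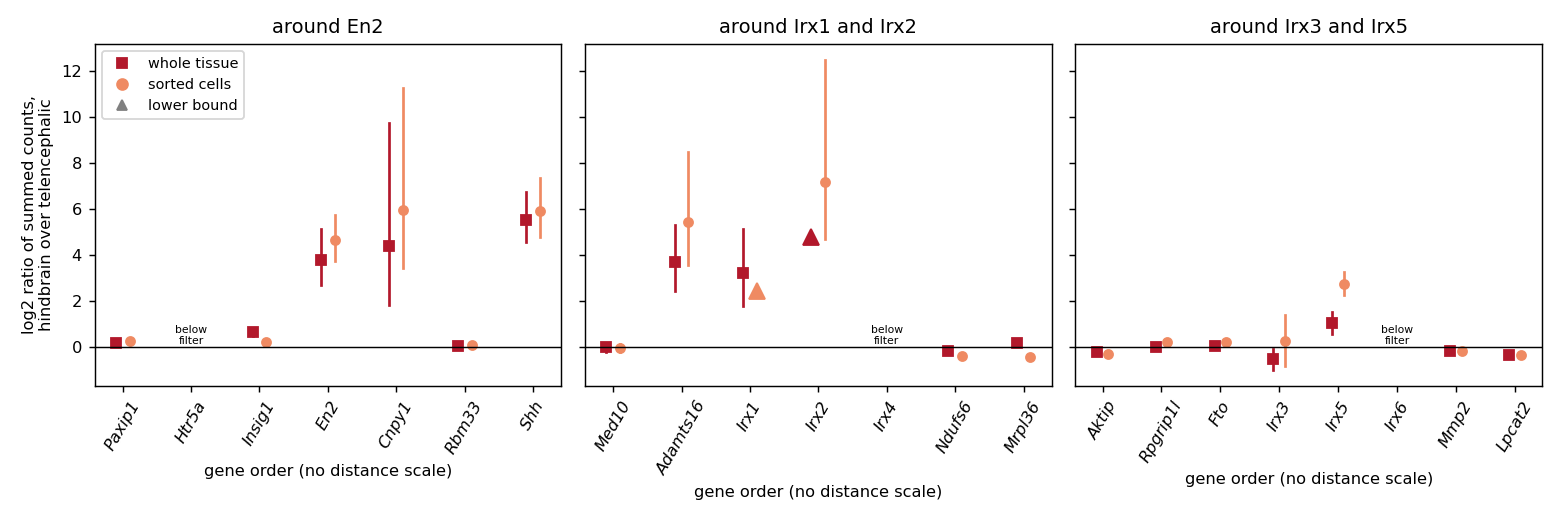
Log2 ratio of pooled counts, hindbrain over telencephalic, for the genes in chromosomal order around En2 and the Iroquois clusters, squares for whole tissue, circles for sorted cells, lines for 95% counting intervals and triangles for lower bounds. Cnpy1, Shh and Adamts16 stand high beside genes such as Rbm33 that lie at 0.

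Over the 8 libraries, the genes whose log2 CPM followed each member most closely were picked from 9184 candidates by Pearson correlation. This describes likeness only: the libraries differ by region and preparation, and no p is given. For En2 they were Slc16a10, Esrrg and Cltb (r of 0.996, 0.991 and 0.988), and for Irx2 they were Tpd52l1, Meis1 and Rab38 (all 0.994), Meis1 being a Hox cofactor. For Irx3 they were Cald1, Lrp4 and Pcdhgb5 (0.992, 0.990 and 0.989), for Irx5 Moxd1, Cdh10 and Ankrd12 (0.982, 0.981 and 0.981), for En1 Fam181b and Atp8a1 (0.983 and 0.972) and for Irx1 Ptpn1, Acadl and Fbxo44 (0.956, 0.950 and 0.946).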

How the data were processed

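The authors deposited 1 table of raw whole-number counts of reads for 23284 gene symbols in 8 libraries, and every column matched a sample. Per the labels' protocols, RNA was isolated with a column kit for small samples, pre-amplified as cDNA (NuGEN Ovation V2) and sequenced from paired-end libraries of the TruSeq v2 type. The tools in the submitters' processing notes are HTSeq, TopHat2 2.0.4 with Bowtie2 2.0.5, CASAVA 1.8.2 and DESeq 1, with mouse build mm9. Annotation and strand setting: not given in the sources used here.

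Genes passing filterByExpr (minimum count 10, minimum total 15) entered a model in edgeR 4.0.16 (R 4.3.3): TMM scaling, 4 group means over all 8 libraries, quasi-likelihood F tests and Benjamini-Hochberg adjustment over all genes, with calls at an adjusted p under 0.05. The fit was tested on simulated data for the whole-tissue region contrast only, and no gene was made absent from a group there. Region contrasts are hindbrain minus telencephalic, and sorting contrasts are sorted minus whole. Groups at 0 counts were given a floor of 3 counts over the group, and such a ratio leaves out the counting error of the other group. With 1 to 3 counts, pooled ratios with exact conditional binomial 95% intervals were used. Whether replicates came from separate cultures or litters is not given, so p-values measure the spread between these samples. No library was a copy of another, since replicate counts differed beyond sampling noise.

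The members were named with no threshold on their values, but they and the gene lists were chosen with earlier results of these data known. Of each list besides the members, up to 4 genes called in a region comparison are named by adjusted p. Neighbours are the nearest on each side and any called within 3, and likeness partners are from the top 3, of which 1 is not reported here. Genes named for their low counts, Wnt1, Fgf8, the Pax genes, Irx4 and Irx6, the abundant Fgf18 and Syt1, and the choice of the printed promoter were settled after values were seen. The design text pairs regions within brains, and same-numbered libraries deviated together with a correlation of 0.441 in whole tissue and 0.0327 in sorted cells over 9043 genes. Protein sequences were not used here. Alternatives tried were other scalings, no filter, DESeq2 1.42.0, the brain block, the libraries of a comparison alone and leaving out each library.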

Additional observations from a re-analysis of the deposited data

Results flagged for a closer look

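The region difference of 3 of the patterning genes listed here differed between sorted cells and whole tissue by the interaction test of edgeR (adjusted over all genes). These 3 were picked from the lists because they were called, and 1.34% of all genes tested were called. A positive interaction was also called for 5 of 10 mural, 3 of 12 macrophage, 2 of 12 endothelial and 1 of 12 mesenchymal markers. A negative one was called for 1 of 11 neuronal and 1 of 11 progenitor and glial markers, the latter being Pax6 itself. None of the 10 choroid epithelium markers was called. The part of these cell types in the 3 genes was not tested. For Dusp6, an ERK phosphatase induced by FGF signalling, the interaction was 1.51 ± 0.30 in log2 units (adjusted p = 0.0291). Dusp6 had 17.6 and 25.2 CPM in hindbrain sorted cells against 12.2 and 9.30 CPM in telencephalic sorted cells, and 16.5 and 13.02 CPM in hindbrain whole tissue against 22.1 and 20.4 CPM in telencephalic whole tissue. For Etv5, an ETS factor induced by FGF signalling, it was 1.30 ± 0.27 (adjusted p = 0.0378), with 21.6 and 15.3 CPM in hindbrain sorted cells against 7.75 and 9.61 CPM in telencephalic sorted cells, and 18.3 and 18.0 CPM in hindbrain whole tissue against 21.1 and 20.6 CPM in telencephalic whole tissue. For Pax6, a rhombic lip and progenitor gene, it was -3.37 ± 0.70 (adjusted p = 0.0358), with a region difference of -2.45 ± 0.52 in sorted cells and 0.92 ± 0.48 in whole tissue. Pax6 had 0.800 and 0.880 CPM in hindbrain sorted cells against 5.03 and 4.15 CPM in telencephalic sorted cells, and 10.6 and 2.88 CPM in hindbrain whole tissue against 3.30 and 3.88 CPM in telencephalic whole tissue. Hindbrain whole replicate 1, which was also high in other rhombic lip genes, was above both telencephalic libraries, and replicate 2 was below both.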

How the results depend on the processing

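Over the members' log2 fold changes, 382 alternative values kept their direction and call, 9 passed and 8 lost the threshold, and 10 reversed or went to 0. Counts of called genes are not in this tally. En2 and Irx2 kept their region calls in both preparations under every alternative run. Gained or lost calls, with causes not tested, included En1 in sorted cells with library totals as the scale (adjusted p = 0.0432), with no filter (0.0497) and without hindbrain sorted replicate 1 (0.0398), and Irx5 in hindbrain sorting without hindbrain sorted replicate 2 (1.09, adjusted p = 0.0361). Reversals and values that went to 0 all concerned uncalled values. Leaving out a library gave ranges of -1.03 to 0.91 for Irx3 between sorted regions. For the interaction they were -1.82 to 3.86 for Irx1, -3.35 to 0.13 for Irx2 and -0.43 to 1.51 for Irx3. For telencephalic sorting they were -0.37 to 0.17 for En2, -5.51 to 0 for Irx1 and 0 to 3.48 for Irx2, and for hindbrain sorting -0.19 to 0.54 for Irx2, which was -0.078 with library totals. Values at 0 or 1 count in a group depend on the prior count.

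Counts of called genes over all genes moved more. With the 4 libraries of a comparison alone they were 1587 (region, whole tissue; 909 in the fit over 8), 1460 (region, sorted; 2383) and 2236 (hindbrain sorting; 3472). Leaving out a library gave 316 to 1341, 1051 to 3252, and 1691 to 3875 in those, and 1519 to 4501 for telencephalic sorting (3517) with 58 to 473 for the interaction (211). The interaction count was 441 with no filter, 335 with DESeq2 and 337 with the replicate block, under which the region counts were 1195 and 2943 and Irx1 in whole tissue was the only member whose call changed. Members called ranged from 0 to 1 for the interaction and 0 to 2 for hindbrain sorting without a library, and were 2 for telencephalic sorting with library totals. Under that scale the median log2 difference of all genes was 0.20 (region, sorted), 0.12 (interaction), -0.30 (telencephalic sorting) and -0.19 (hindbrain sorting), and the share of calls that were higher was 70.7% (57.6% with TMM), 83.5% (59.7%), 10.5% (44.1%) and 20.1% (46.3%) for region in whole tissue, region in sorted cells, telencephalic sorting and hindbrain sorting.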

Other observations

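Among 7 genes of the FGF feedback that acts at the midbrain-hindbrain border, 2 were higher in hindbrain than in telencephalic sorted cells (Dusp6, 0.98 ± 0.21, adjusted p = 0.00814, and Etv5, 1.10 ± 0.20, adjusted p = 0.00231, both by edgeR) and 1 was lower. The lower one was Il17rd, an inhibitor of FGF receptor signalling, at -0.56 ± 0.15 (adjusted p = 0.0223). In whole tissue 0 were higher and 2 were lower, Spry1, a Sprouty inhibitor, at -0.74 ± 0.19 (adjusted p = 0.0362) and Il17rd at -0.59 ± 0.15 (adjusted p = 0.0359). Dusp6 and Etv5 were also lower in sorted than in whole telencephalic tissue, by -0.97 ± 0.22 and -1.27 ± 0.20 (adjusted p = 0.00743 and 0.000755), and did not pass the test in hindbrain tissue (0.53 ± 0.21 and 0.03 ± 0.19). Macrophage, mural and mesenchymal markers also differed between the sorted groups, and the part of those cells in these values was not tested.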
